A study of Mus musculus with 4 samples.

Results

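The unfolded protein response and the protein folding machinery of the endoplasmic reticulum (ER) were examined through 38 genes chosen by name. Matched by symbol, they gave 39 of the 54532 gene rows in the count files, because Ddit3 has a further row for a short overlapping model of 105 bases that held 0 counts in all libraries. Of the 39 rows, 37 had enough counts to be tested, and the others were that row and Ern2. The 4 RNA sequencing libraries came from Dll1-mCherry+ tumours of MMTV-PyMT mice on the C57BL/6 strain, and both groups share this genotype and strain. In MMTV-PyMT mice a mammary tumour virus promoter drives the polyoma middle T oncogene in mammary epithelium, so the tumours are carcinomas, and the labels call the sequenced cells breast cancer-associated fibroblasts (CAFs). The unirradiated group, with no radiation, and the irradiated group, with targeted radiation of 6 Gy, comprised 2 libraries each (A and B), and the titles of all 4 carry day 6. The sources used here do not give the age and number of the animals, any pooling or the time between radiation and collection. Whether A and B are different animals or repeats of a single preparation is not stated either, so p-values cover only library-to-library variation, which could be technical.

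Total counts ranged from 13011489 to 23763830 per library. An antibody to PDGFRa was used to detect fibroblasts in the digested tumours, but the labels do not say which fraction was sequenced. Epithelial markers were abundant in every library: 18 of them summed to between 9190 and 10110 CPM (counts scaled to library size, with TMM factors), against 615 to 2088 CPM for 14 fibroblast markers. Pdgfra itself was at 5.43 and 5.74 CPM in the unirradiated and 22.9 and 24.6 CPM in the irradiated libraries. Markers of epithelium and of fibroblasts were thus both present in every library, and in such bulk samples fewer cells of a type and less RNA per cell cannot be told apart.

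The unfolded protein response adjusts the folding capacity of the ER to its load of client proteins through 3 membrane sensors. IRE1, encoded by Ern1, splices the Xbp1 transcript so that it encodes an active transcription factor of folding, secretion and degradation genes. ATF6 is itself released by proteolysis in the Golgi and turns on ER chaperone genes, while PERK, encoded by Eif2ak3, phosphorylates eIF2alpha, which lowers translation in general and favours that of ATF4. ATF4 in turn activates amino acid synthesis genes and CHOP, encoded by Ddit3. In secretory epithelium and plasma cells the pathway also works without acute stress, to maintain a large ER. Gene-level counts do not separate spliced from unspliced Xbp1 and give neither phosphorylation nor cleavage, so the results below are transcript levels and not sensor activity.

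Some promoters of the family carry short response elements, and their matches are shown here. The window ran from 250 bases before to 50 bases after the RefSeq start on GRCm38.p6, both strands were searched, and 31 of the 38 members had a promoter in the table. The ER stress response element (ERSE, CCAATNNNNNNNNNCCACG), read by ATF6 together with NF-Y, was found in 39 of all 32851 promoters of this length (0.119%) and in 9 members, namely Calr, Canx, Creld2, Derl3, Dnajc3, Hsp90b1, Hspa5, Pdia6 and Syvn1. ERSE-II (ATTGGNCCACG) was found in 0.0365% of all promoters and in Dnajb11 and Herpud1. The C/EBP-ATF response element (CARE, TGATGNAA), read by ATF4, was found in 3.97% of all promoters and in Asns, Chac1, Herpud1 and Trib3. The UPRE (TGACGTGG), read by XBP1 and ATF6, was found in 0.676% of all promoters and in 0 members. A match describes the letters and is not evidence of binding. The matches did not sort the members by the branch lists used below. Dnajc3, Pdia6 and Syvn1, listed under XBP1, and Canx, listed under no branch, held an ERSE. Herpud1, listed under ATF6, held a CARE. The sequences below are from RefSeq, written 5′ to 3′ on the strand of the gene, with the element in capitals. They are the ERSE of the member with the largest fall (Derl3), of the main ER chaperones Hspa5 and Hsp90b1, of the lectin pair Canx and Calr, and the elements of Herpud1, which has an ERSE-II and a CARE, and of the ATF4 targets Asns and Chac1. On the opposite strand the ERSE reads from CGTGG to ATTGG.
Derl3, chr10:75893227-75893275, plus strand: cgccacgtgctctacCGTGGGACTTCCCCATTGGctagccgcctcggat
Hspa5, chr2:34772020-34772048, plus strand: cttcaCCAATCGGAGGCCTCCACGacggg
Hsp90b1, chr10:86705518-86705671, minus strand: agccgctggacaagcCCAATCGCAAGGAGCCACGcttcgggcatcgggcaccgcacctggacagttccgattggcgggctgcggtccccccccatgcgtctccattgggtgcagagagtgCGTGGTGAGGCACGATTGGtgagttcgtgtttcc
Canx, chr11:50325785-50325833, minus strand: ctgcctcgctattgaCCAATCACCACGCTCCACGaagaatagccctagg
Calr, chr8:84847060-84847108, minus strand: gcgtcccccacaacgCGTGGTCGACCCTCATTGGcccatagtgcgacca
Herpud1, chr8:94386302-94386402, plus strand: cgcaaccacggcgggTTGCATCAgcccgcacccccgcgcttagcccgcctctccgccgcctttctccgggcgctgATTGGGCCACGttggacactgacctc
Asns, chr6:7693220-7693237, minus strand: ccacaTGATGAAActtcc
Chac1, chr2:119351034-119351071, plus strand: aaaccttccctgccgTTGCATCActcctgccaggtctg

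Members that share the same promoter element differed widely in their change between the groups. Of the 9 members with an ERSE, 1 rose, 5 fell and 3 were not called at an adjusted p under 0.05. Among all 15961 tested genes, 33.9% were called higher and 32.5% lower, 66.4% in all. The log2 fold changes of the ERSE members, irradiated over unirradiated, spanned -1.99 for Derl3 to 0.70 for Canx. Hsp90b1, the only matched member with a pair of exact ERSE matches, was at 0.04 and was not called. Hspa5, with a single exact match between positions -65 and -47 from the start, was at -0.61. The search took exact matches only, so it does not give the number of elements in either promoter. The members with a CARE ranged from -0.54 (Asns) to 0.13 (Chac1), and both members with an ERSE-II fell, Herpud1 by 0.42 and Dnajb11 by 0.19 on the log2 scale.

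**Figure D1:**
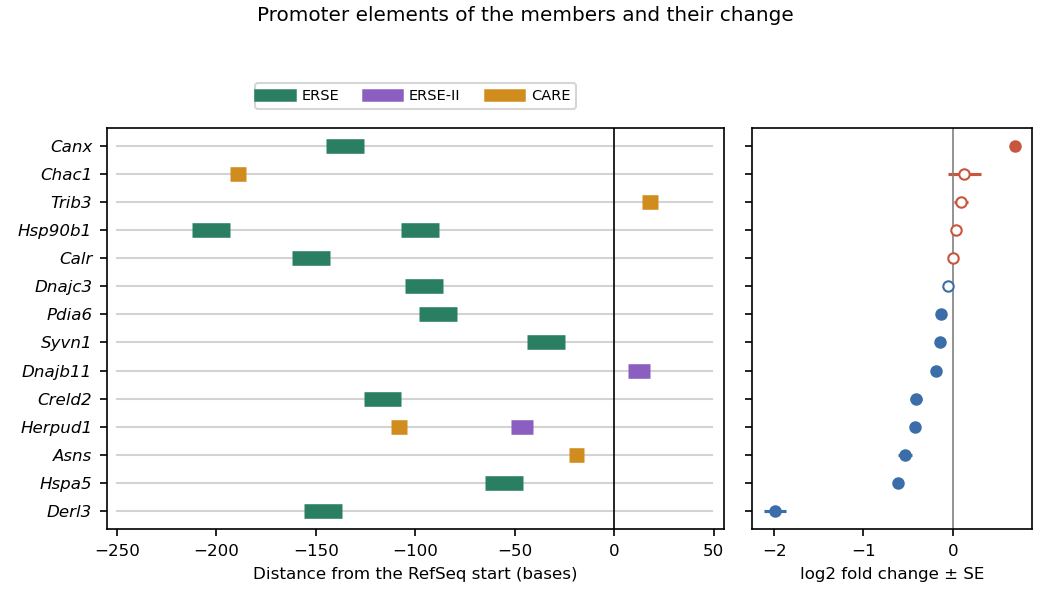
Left, the position of each ERSE, ERSE-II and CARE in bases from the RefSeq start (vertical line) for the members that hold one. Right, each member's log2 fold change, irradiated over unirradiated, with its standard error from 2 libraries a group (filled, adjusted p under 0.05; open, not called). ERSE carriers lie from -1.99 (Derl3) to 0.70 (Canx), with Calr, Hsp90b1 and Dnajc3 near 0.

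More members fell than rose in the irradiated libraries. Called by edgeR's quasi-likelihood test at a Benjamini-Hochberg adjusted p under 0.05 over 15961 genes, 6 of the 37 tested members rose, 22 fell and 9 were not called, with a median log2 fold change of -0.14. Xbp1 and Derl3 fell the most, and Canx, Ern1 and Atf6 rose the most. Over all tested genes 66.4% were called, 33.9% as higher and 32.5% as lower, with a median of -0.004. Of the tested members, 75.7% were called, 16.2% as higher and 59.5% as lower. All adjusted p-values given for single genes come from the same fit. Changes were mostly small: tested against a change of 1.5-fold, only Canx was higher, and Xbp1, Derl3, Sec61b, Sdf2l1 and Dnajb9 were lower. These are 1 and 5 of 37 members, beside 2033 higher and 1753 lower of all 15961 tested genes. At that threshold the share of falls was close to that of all genes. Without a filter on low counts the calls became 8 higher and 14 lower of 38, beside 5854 and 4786 of all 30172 genes. With DESeq2 they were 6 higher and 15 lower of 38, beside 4487 and 3421 of 30172. The members together made up 1.07% of scaled counts in both unirradiated libraries and 0.895% and 0.908% in the irradiated ones. Most of that difference lay in Xbp1 and Hspa5. Mean CPM went from 1234 to 492 for Xbp1 and from 2135 to 1400 for Hspa5, beside 10722 to 9012 for the members' sum.

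**Figure D2:**
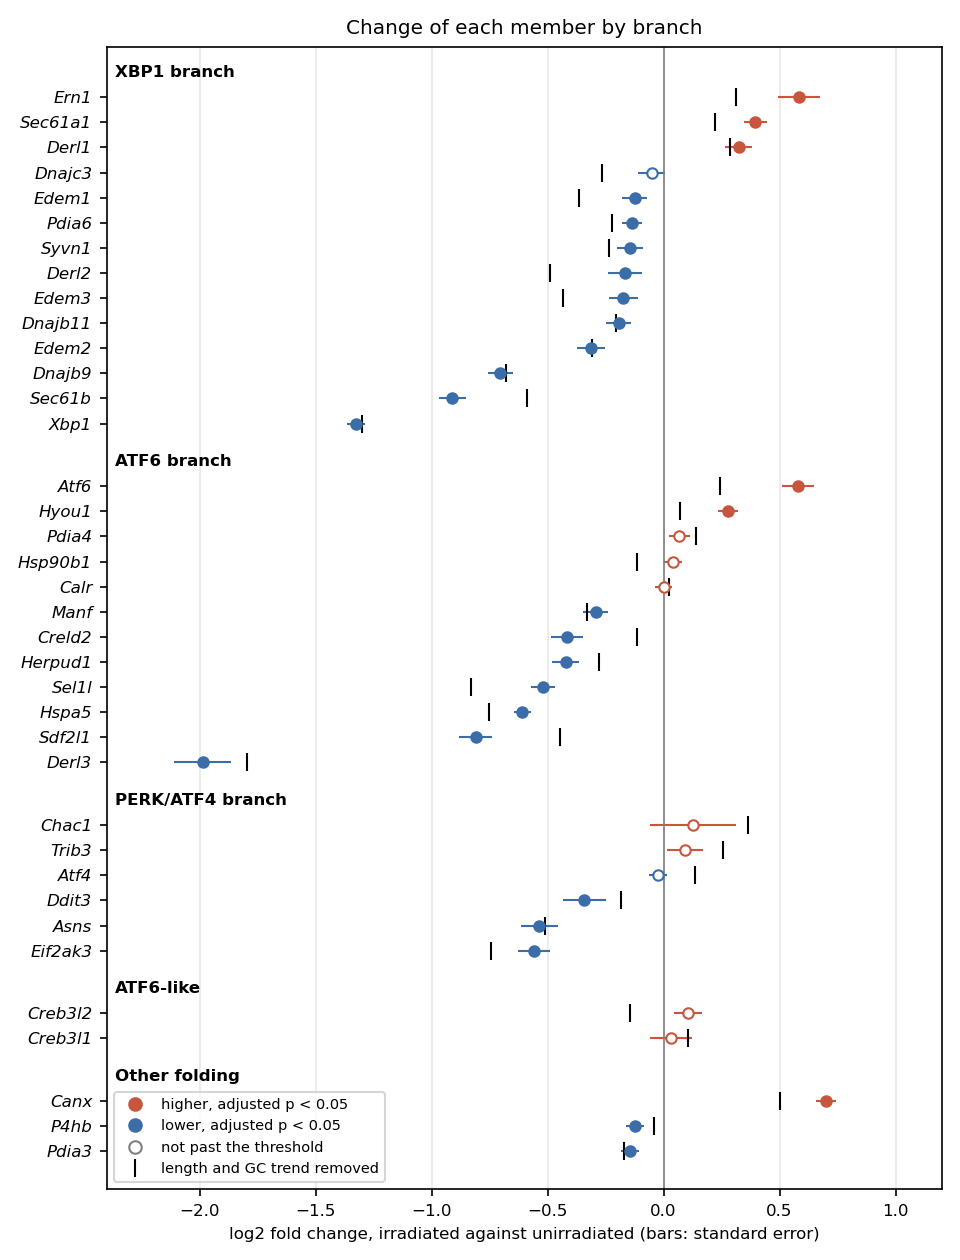
Log2 fold change (irradiated over unirradiated) of the 37 tested members by branch, with standard errors from 2 libraries a group. Filled points passed an adjusted p under 0.05 (red higher, blue lower), open points did not, and the black ticks give the value with the length and GC trend taken out. Falls outnumber rises in the XBP1 and ATF6 branches, and Derl3 (-1.99) and Xbp1 (-1.33) lie farthest from 0.

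The 3 expressed sensors moved in different directions: the transcripts of IRE1 and ATF6 rose, and that of PERK fell. Ern1 (chromosome 11, 106394650 to 106487852, mm10) was at 25.9 and 24.0 CPM in unirradiated A and B and at 41.0 and 34.9 CPM in irradiated A and B, and the groups did not overlap (log2 fold change 0.58, SE 0.0911, adjusted p = 9.34e-08). Atf6 (chromosome 1, 170704674 to 170867771) was at 44.0 and 44.2 CPM in the unirradiated and 66.8 and 65.2 CPM in the irradiated libraries (0.58, SE 0.0697, adjusted p = 7.08e-11). Eif2ak3 (chromosome 6, 70844515 to 70905245) showed the opposite pattern, with 66.1 and 71.2 CPM falling to 45.9 and 46.8 CPM (-0.56 on the log2 scale, SE 0.0684, adjusted p = 1.15e-10). Per kilobase of gene length, the ratio of Atf6 to Eif2ak3 went from 0.435 and 0.405 to 0.948 and 0.909. Ern2, the IRE1 paralog of mucus-secreting epithelium, had 0 counts in the unirradiated group and 2 counts in irradiated B, which is at or under the limit that 3 counts over a group allow (0.103 CPM unirradiated, 0.0724 CPM irradiated). Removing the trend of all tested genes with length and GC content from the fold changes lowered the rises of Ern1 and Atf6 to 0.31 and 0.24, and both remained called.

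Among the transcription factors, Xbp1 fell 2.51-fold, while Atf4 was at nearly the same level in both groups. Xbp1 (chromosome 11, 5520659 to 5525893) was at 1224 and 1245 CPM in the unirradiated libraries and at 485 and 499 CPM in the irradiated ones. The 2 libraries of each group lay close together and far from the other group (log2 fold change -1.33, SE 0.0384, adjusted p = 6.33e-40). Leaving out any 1 library kept the value between -1.34 and -1.29. Atf4, the transcription factor translated when eIF2alpha is phosphorylated, was at 600 and 603 CPM in the unirradiated and 580 and 604 CPM in the irradiated libraries, and these ranges overlapped (-0.02, adjusted p = 0.621). Its log2 fold change was 0.13 and passed the test once the trend with length and GC content was removed. Ddit3, encoding the pro-apoptotic factor CHOP, was at 30.9 and 31.0 CPM and fell to 25.6 and 23.5 CPM (-0.34, SE 0.0917, adjusted p = 9.23e-04). That call was lost without irradiated B (-0.26), under DESeq2 and with the trend removed (-0.18), and Ddit3 overlaps the Mars gene on the other strand by 68 bases of their spans. The ATF6-like membrane factors Creb3l1, at 28.8 to 30.6 CPM over the 4 libraries, and Creb3l2, at 75.5 to 82.5 CPM, were not called (0.03 and 0.11). Creb3l2 was called in opposite directions under different alternatives, higher with no filter on low counts (0.17) and lower with the length and GC trend removed (-0.15).

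**Figure D3:**
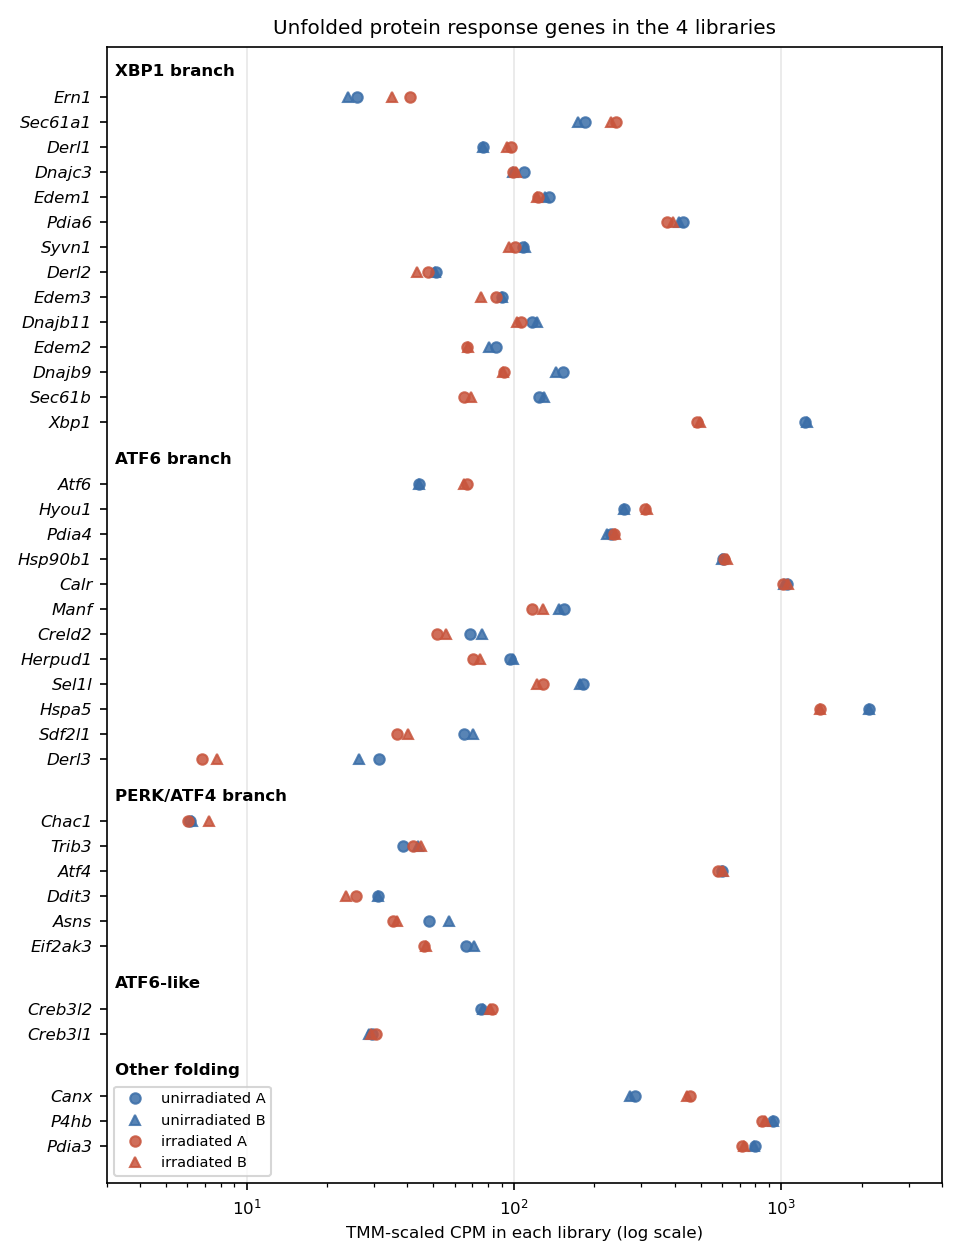
TMM-scaled CPM of each tested member in the 4 libraries on a log axis (blue unirradiated, red irradiated; circles A, triangles B), grouped by branch. Replicate points nearly coincide for most members. Xbp1 goes from 1224 and 1245 to 485 and 499 CPM, and the points of Calr and Atf4 overlap between the groups.

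Of the 9 chaperones and J-domain co-chaperones, 6 fell (66.7%, against 32.5% of all tested genes), 1 rose and 2 were not called. Hspa5, which encodes BiP, the Hsp70 chaperone that binds and silences the sensors, had the highest level per kilobase of all members in the unirradiated libraries. It was at 2129 and 2141 CPM and fell to 1402 and 1398 CPM, with no overlap (chromosome 2, 34771970 to 34777547; log2 fold change -0.61, SE 0.0349, adjusted p = 4.38e-24). Hsp90b1, encoding the Hsp90 chaperone GRP94, was not called, at 605 and 602 CPM unirradiated and 612 and 629 CPM irradiated (0.04, adjusted p = 0.382). With the length and GC trend removed Hsp90b1 was called lower at -0.11, beside -0.75 for Hspa5. Dnajb9, encoding the BiP co-chaperone ERdj4 that also restrains IRE1, fell from 153 and 144 CPM to 91.5 and 90.9 CPM (-0.70, SE 0.0542). Sdf2l1, a partner of the BiP and ERdj3 cycle, fell from 65.3 and 70.1 CPM to 36.6 and 40.1 CPM (-0.81, SE 0.0716). Its fall shrank to -0.45 once the length and GC trend was removed. Hyou1, encoding the large Hsp70-like nucleotide exchange factor GRP170, was the member of this role that rose, from 257 and 259 CPM to 310 and 315 CPM (0.28, SE 0.0442), a call that was lost with the trend removed (0.07). Creld2, a disulphide isomerase-like ER protein (-0.42), Manf, a secreted BiP-binding factor (-0.29), and Dnajb11, encoding ERdj3 (-0.19), fell less. Creld2 lost its call with the trend removed (-0.11), and Dnajb11 with DESeq2 and with no filter on low counts. Manf is uncertain, since the span of its gene overlaps Dcaf1 and Rbm15b, which were counted 3931 and 5228 times against 9527 for Manf. Dnajc3, encoding the co-chaperone p58IPK that inhibits PERK, was at 109 and 98.9 CPM unirradiated and 99.2 and 102 CPM irradiated, with overlap between the groups (-0.05), and was called lower with the trend removed (-0.27).

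Of the 6 genes of the calnexin cycle and the disulphide isomerases, 1 rose, 3 fell and 2 were not called, a share of calls (66.7%) at the background of 66.4%. Canx, encoding the membrane lectin calnexin that retains unfolded glycoproteins, rose from 283 and 271 CPM to 458 and 443 CPM (chromosome 11, 50293961 to 50325673; log2 fold change 0.70, SE 0.0432, adjusted p = 1.57e-22). It remained called with the length and GC trend removed (0.50). Calr, its soluble counterpart calreticulin, was at 1051 and 1028 CPM unirradiated and 1017 and 1063 CPM irradiated, so that its groups overlapped fully (0.00, SE 0.0372, adjusted p = 0.984). The ratio of Canx to Calr per kilobase went from 0.165 and 0.162 to 0.276 and 0.256. Pdia3, the isomerase ERp57 that works with both lectins (-0.14), Pdia6 (-0.14) and P4hb, the classical protein disulphide isomerase (-0.12), fell by small amounts. Pdia3 was at 799 and 792 CPM and fell to 711 and 729 CPM, and P4hb was at 936 CPM in both unirradiated libraries and at 849 and 869 CPM in the irradiated ones. P4hb lost its call without unirradiated A or B and with the trend removed, and Pdia6 lost it without unirradiated A or irradiated A and with DESeq2, while all 3 lost it with no filter on low counts. With the trend removed the fall of Pdia6 was larger (-0.22). Pdia6 also overlaps Atp6v1c2 on the other strand by 50 bases. Pdia4, the isomerase ERp72, was at 231 and 224 CPM unirradiated and 237 and 240 CPM irradiated and was not called (0.07), but passed the test as higher with no filter (0.13) and with the trend removed (0.14).

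Genes of ER-associated degradation, which returns misfolded proteins to the cytosol for the proteasome, mostly fell: 8 of 9 were lower (88.9%, against 32.5% of all tested genes) and 1 was higher. Derl3, a derlin of the retrotranslocation complex found in secretory cells, had the largest fall of all members, from 31.4 and 26.4 CPM to 6.80 and 7.75 CPM (chromosome 10, 75893413 to 75895941; 3.96-fold, log2 fold change -1.99, SE 0.123, adjusted p = 2.11e-22). Among its relatives, Derl1 rose from 76.8 and 76.4 CPM to 97.9 and 94.1 CPM (0.32, SE 0.0594) and Derl2 fell by 0.17 on the log2 scale. Sel1l, the adaptor of the HRD1 ligase, fell from 182 and 177 CPM to 129 and 122 CPM (-0.52, SE 0.0510). Its fall was larger with the trend removed (-0.83). Syvn1, which encodes HRD1 itself, was at 108 and 110 CPM and fell slightly, to 101 and 96.2 CPM (-0.14). Herpud1, an organiser of the HRD1 complex, fell from 96.6 and 99.03 CPM to 70.6 and 74.8 CPM (-0.42), and by 0.28 with the trend removed. The EDEM proteins, which mark glycoproteins for degradation by trimming mannose, also fell, Edem2 by 0.31, Edem3 by 0.17 and Edem1 by 0.13 on the log2 scale. Without unirradiated A, unirradiated B or irradiated B the role had 4 in place of 8 lower genes: Edem1 lost its call without any 1 library, Edem3, Derl2 and Syvn1 lost it without each of those 3, and all 4 lost it with DESeq2 and with no filter. With the length and GC trend removed their falls were larger and remained called, at -0.37 for Edem1, -0.43 for Edem3, -0.49 for Derl2 and -0.24 for Syvn1, while Edem2 stayed at -0.31, so the order among the EDEM genes turned. Syvn1 overlaps Mrpl49 by 83 bases, and Derl2 overlaps Mis12 by 231 bases, both on the other strand.

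The 2 translocon subunits among the members, which are parts of the channel through which new proteins enter the ER, moved apart. Sec61b, encoding the small beta subunit, fell from 125 and 130 CPM to 65.4 and 69.4 CPM (chromosome 4, 47474658 to 47483242; log2 fold change -0.91, SE 0.0580, adjusted p = 6.51e-22). Sec61a1, encoding the pore-forming alpha subunit, rose from 184 and 174 CPM to 241 and 230 CPM (0.40, SE 0.0481, adjusted p = 9.63e-11). The groups did not overlap in either gene, and the ratio of Sec61b to Sec61a1 per kilobase went from 3.58 and 3.97 to 1.43 and 1.60. Both calls remained with the length and GC trend removed, at -0.59 and 0.22.

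Of the 3 targets of ATF4 and CHOP only Asns passed the test. Asns, encoding asparagine synthetase, fell from 48.2 and 57.1 CPM to 35.3 and 36.6 CPM, a log2 fold change of -0.54 (SE 0.0782, adjusted p = 1.77e-08). Trib3, a pseudokinase that inhibits AKT and ATF4, was at 38.5 and 43.9 CPM unirradiated and 42.0 and 44.9 CPM irradiated, with overlap (0.09). It passed the test with the trend removed (0.26). Chac1, which degrades glutathione, was the least abundant tested member by CPM in the unirradiated libraries, at 6.14 and 6.23 CPM, with 6.01 and 7.26 CPM in the irradiated ones (0.13, SE 0.186).

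By branch, the XBP1 genes had 3 higher and 10 lower of 14 tested, and their median change was -0.15 on the log2 scale. The ATF6 genes had 2 higher and 7 lower of 12, with a median of -0.35, and the PERK and ATF4 genes 0 higher and 3 lower of 6, with a median of -0.18. Each branch had more falls than rises in this fit, against a background of 33.9% higher and 32.5% lower. In the PERK and ATF4 branch this did not hold with the length and GC trend removed (2 higher and 2 lower, median -0.0258) or against a change of 1.5-fold (0 and 0). The medians lay close together beside the range within each branch. The XBP1 branch ran from Xbp1 (-1.33) to Ern1 (0.58), the ATF6 branch from Derl3 (-1.99) to Atf6 (0.58), and the PERK and ATF4 branch from Eif2ak3 (-0.56) to Chac1 (0.13). The branches were described by counts and medians, and no test of a difference between them was made. The count of 10 lower XBP1 genes varied with the processing: it was 11 with the length and GC trend removed, which moved the median to -0.29, but 3 against a change of 1.5-fold, 4 with DESeq2 or with no filter, 5 without unirradiated A, and 6 without unirradiated B or without irradiated B. The trend's removal moved the ATF6 median to -0.20 and that of all tested genes to -0.0714. Many of these genes answer to both XBP1 and ATF6. Without 9 such genes the XBP1 branch had 3 higher and 6 lower of 9 with a median of -0.17, whereas the ATF6 branch had 2 higher and 3 lower of 8 and its median moved to 0.02. The 9 genes placed under both, which are Dnajb11, Dnajc3, Pdia6, Syvn1, Herpud1, Sel1l, Derl3, Sdf2l1 and Edem1, included 8 that fell and 0 that rose.

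Ratios per kilobase were taken within each library for pairs picked after the values were seen. They restate the fold changes above and do not describe the members in general. Xbp1 over Ern1, the target and its splicing enzyme, went from 119 and 130 to 29.8 and 36.0, and Xbp1 over Atf4 went from 1.480 and 1.4995 to 0.6076 and 0.5998. Hspa5 over Hsp90b1 went from 3.35 and 3.39 to 2.18 and 2.12. Ordered by CPM per kilobase, Hspa5, Xbp1 and Calr ranked 1, 2 and 3 in both unirradiated libraries, while in both irradiated libraries Calr ranked 1, Hspa5 ranked 2 and Xbp1 ranked 7. Hspa5 and Calr were close to each other in the irradiated group, at 331 and 361 CPM per kilobase, and Xbp1 was at 151 there against 380 in the unirradiated group.

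Gene length and the make-up of the libraries moved with these results, and their part in them was not tested. The 6 members that rose had a median gene length of 6981 bases (range 3328 to 9231), the 22 that fell 3242 bases (1108 to 8555) and the 9 not called 2603 bases. Across the 37 members, which share all 4 libraries, log2 fold change and gene length had a Spearman correlation of 0.39, and GC content one of -0.08. With the trend of all tested genes with length and GC removed, 8 members were higher and 22 lower, Xbp1 (-1.30), Derl3 (-1.80) and Hspa5 (-0.75) among the latter. In that setting 4495 of all 15961 tested genes were higher and 5744 lower. Hsp90b1 (-0.11), Dnajc3 (-0.27) and Creb3l2 (-0.15) were then called lower, and Pdia4 (0.14), Atf4 (0.13) and Trib3 (0.26) higher. The marker counts that follow stand beside 33.9% higher and 32.5% lower over all tested genes. Of 18 epithelial markers 5 were higher and 11 lower, and their sum went from 10079 and 10110 to 9190 and 9529 CPM. Of 14 fibroblast markers 12 were higher and 0 lower, with sums of 645 and 615 against 2081 and 2088 CPM. Of 9 milk protein and secretory markers 6 were higher and 1 lower, the latter being Csn3, which fell by 0.85 on the log2 scale and made up most of their sum of 6093 and 6175 against 3972 and 4112 CPM. Plasma cells are rich in Xbp1 and Derl3. Of the 11 tested B and plasma cell markers 4 were higher (36.4%) and 5 lower (45.5%), with sums of 238 and 230 against 310 and 304 CPM. Within that list the plasma cell genes Mzb1 and Tnfrsf17 did not exceed 0.525 and 0.0807 CPM in any library, and Ms4a1 had 0 counts in both irradiated libraries. Mzb1 and Tnfrsf17 thus add almost nothing to these sums, which come from other genes of the list. Any part of plasma cells in the changes was not tested. Macrophage markers summed to 459 to 463 against 914 to 915 CPM (11 higher and 1 lower of 12), and endothelial markers to 73.5 to 73.9 against 174 to 184 CPM (9 higher and 0 lower of 10). T and NK cell markers summed to 12.5 to 12.8 against 4.80 to 4.93 CPM (0 higher and 5 lower of 7), and cartilage markers to 1094 to 1095 against 2738 to 2759 CPM (5 higher and 2 lower of 7), with Matn1 at 0 in all libraries.

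Around the members, 7 further lists of pathway genes held 132 tested genes, of which 53 rose (40.2%) and 47 fell (35.6%). Of all tested genes 33.9% rose and 32.5% fell. The share called in these lists, 75.8%, was like the members' 75.7%, against 66.4% of all tested genes. Only the median of the lists (0.01) was close to that of all tested genes (-0.004). The ATF6 relatives and the proteases that cleave them had 3 higher and 1 lower of 5. Mbtps2, the site-2 protease of ATF6, rose (0.66) as did Atf6b (0.43), and Creb3l4 fell (-1.57). Among the eIF2alpha kinases, substrate and phosphatase subunits, 2 of 6 were higher and 3 lower. The stress-induced phosphatase subunit Ppp1r15a, or GADD34, fell from 453 and 438 CPM to 249 and 259 CPM (-0.81), while its constitutive counterpart Ppp1r15b rose (0.23), the haem-regulated kinase Eif2ak1 rose (0.37) and the amino acid sensor Eif2ak4 fell (-0.23). Eif2ak4 lost its call without unirradiated A (-0.20) or irradiated B (-0.19) and with DESeq2, and with the length and GC trend removed Eif2ak1 (0.17) and Ppp1r15b (0.0333) were no longer called and Mbtps2 was at 0.29. ATF4 targets were split, with 13 higher and 11 lower of 30. Slc6a9, a glycine transporter (0.97), and Gdf15, a stress-induced cytokine (0.80), rose, and Pycr1, an enzyme of proline synthesis (-2.02), and the transcription factor Atf5 (-0.98) fell.

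Lists for protein entry and exit from the ER differed in their counts, without a test of that difference. The background for these counts is 33.9% higher and 32.5% lower over all tested genes. Among translocon, signal peptidase and glycosylation genes, 5 of 25 were higher and 14 lower (median -0.17). Sec11c, a catalytic subunit of signal peptidase, fell (-1.20), as did the translocon-associated Ssr4 (-0.81), and the oligosaccharyltransferase subunit Stt3a (0.39) and Ssr3 (0.35) rose. In the COPII export list, which also holds the KDEL receptors, 10 of 18 genes were higher and 4 lower (median 0.20). The coat subunit Sec23a was at 0.64, the KDEL receptor Kdelr3 at 0.47, Mcfd2 at -0.46 and Sar1b at -0.34. With the length and GC trend removed, the COPII counts were 4 higher and 4 lower, and Stt3a (0.0427) and Sar1b (-0.12) were no longer called. Kdelr3 lost its call without unirradiated A (0.37), without irradiated A (0.31) and with DESeq2. Other degradation genes had 5 higher and 5 lower of 16, with Fam8a1 (0.61) up and Rnf5 (-0.59) and Aup1 (-0.54) down. The list of further folding enzymes, which also holds proteins that are not such enzymes, Serp1 and Sdf4 among them, had 15 higher and 9 lower of 32. In that list the glucosyltransferase Uggt2 rose from 1.79 and 1.78 CPM to 9.98 and 7.59 CPM (2.26) and the prolyl isomerase Fkbp9 from 32.2 and 33.1 CPM to 120 and 121 CPM (1.89), while Serp1 (-0.69), a protein that stabilises membrane proteins at the translocon, and Sdf4 (-0.60) fell.

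**Figure D4:**
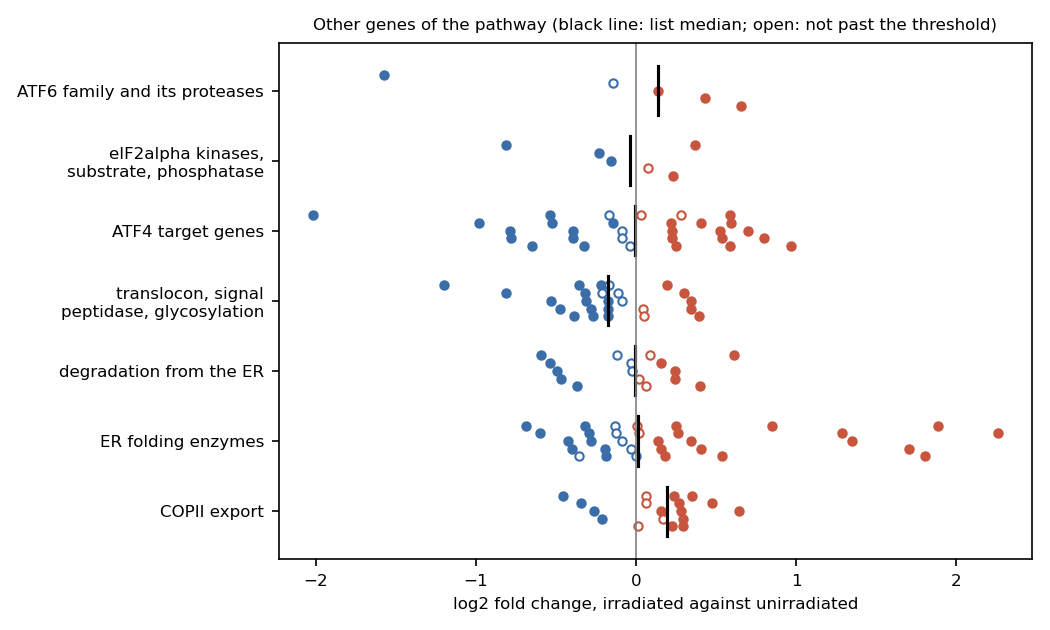
Log2 fold change (irradiated over unirradiated) of 132 tested genes in 7 further pathway lists, 1 point a gene (filled, adjusted p under 0.05; open, not called), with black lines at the list medians. The median lies at -0.17 for translocon, signal peptidase and glycosylation genes and at 0.20 for COPII export genes, and the ATF4 targets spread from -2.02 (Pycr1) to 0.97 (Slc6a9).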

How the data were processed

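Poly(A) RNA from digested tumours was sequenced with a non-directional kit, which keeps no strand information, per the labels' protocols. The submitters' processing notes name STAR 2.5, HTSeq 0.6.1, DESeq2 and the mm10 genome. The sources used here do not give their settings. The deposited values are raw gene counts made by the authors, beside a gene length in bases, per the file headers. All 39 member rows have identical coordinates in GENCODE M21. The test was the quasi-likelihood F-test of edgeR 4.0.16 in R 4.3.3, after filterByExpr and TMM scaling. P-values were adjusted by Benjamini-Hochberg over 15961 genes, with calls at an adjusted p under 0.05. The log2 fold change, without its sign, divided by the root of F gave its standard error. The fit had 2 residual and 59.8 prior degrees of freedom and a common biological coefficient of variation of 3.86%. The code was tested on simulated data. The variance between the libraries of a group, by the median chi-square over genes, was 2.11 (unirradiated) and 2.14 (irradiated) times that of counting alone. Each library was kept as a replicate, though this ratio does not show whether A and B are different animals.

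The members and lists were chosen with earlier results of these data known. All members were named, and from each further list up to 2 higher and 2 lower called genes (mean of 1 CPM or more), the largest change first, and 1 of these is not reported here. Of 141 symbols in the further lists 137 were in the files. The alternatives changed the scaling (RLE, upper quartile), the tool (DESeq2 1.42.0), the dispersion (legacy edgeR), the filter (none beyond 1 count, or 1 CPM in 2 libraries), the design (letter as a block), the libraries (each left out), the threshold (0.1), the fold tested (1.5) and branch membership. A further alternative fitted a trend of the log ratio with length and GC content by mgcv 1.9.3 and removed it by offsets. Reads of overlapping genes, or of near-identical copies, could be split or left uncounted. Limits from a count of 0 cover counting error only. Protein sequences were not analysed here.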

Additional observations from a re-analysis of the deposited data

How the results depend on the processing

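Of the 28 called members, 17 (5 higher, 12 lower) kept their call and direction in the 12 alternatives run on single genes other than the 1.5-fold test, and 11 lost the call in at least 1. Of 27 named genes of the further lists, 21 kept theirs. With 2 libraries a group, the spread is borrowed from other genes, and without 1 library the lone sample is assumed to vary like the other group. The letters A and B only share a name: deviations of same-lettered libraries correlated at 0.03, and with the letter as a replicate block the members had 6 higher and 22 lower (median -0.14) and no call changed. DESeq2 moved the median of all genes to -0.12 and no filter to -0.09, over 30172 genes including low ones.

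The members' median was -0.19 with upper-quartile scaling, -0.10 with DESeq2, -0.0791 with no filter, -0.16 with a stricter filter, -0.21 with the length and GC trend removed, and -0.15 to -0.11 without 1 library. The median of all genes moved too, to -0.0482 with upper-quartile scaling, -0.119 with DESeq2, -0.0946 with no filter and -0.0714 with the trend removed. With DESeq2 and with no filter the members' median thus lay above that of all genes. The branch medians below stand beside the same values. The count of lower members was 14 with no filter and 15 with DESeq2, and it was also smaller than 22 without any 1 library. Against 1.5-fold, 1 member was higher and 5 lower, with 0 higher and 3 lower in the XBP1 branch, 0 and 2 in the ATF6 branch and 0 lower in the PERK and ATF4 branch, and 10 higher and 9 lower in the further lists. Of all 15961 tested genes, 2033 were then higher and 1753 lower. In the XBP1 branch, 4 genes were lower with DESeq2, 4 with no filter, 5 to 8 without 1 library and 6 without shared genes, and the median was -0.20 with upper-quartile scaling, -0.11 with DESeq2, -0.0825 with no filter, -0.29 with the trend removed and -0.18 to -0.10 without 1 library. In the ATF6 branch the median was -0.20 with the trend removed, -0.41 to -0.28 without 1 library and 0.0200 without shared genes, when 3 were lower. In the PERK and ATF4 branch 2 genes were higher and 2 lower with the trend removed, and the median was -0.23 with upper-quartile scaling, -0.14 with DESeq2, -0.12 with no filter, -0.20 with a stricter filter, -0.0258 with the trend removed and -0.18 to -0.15 without 1 library. The further lists' median was -0.0369 with upper-quartile scaling, 0.0448 with DESeq2, 0.0705 with no filter, -0.0543 with the trend removed and 0.00947 to 0.0328 without 1 library.

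Signs turned for 8 members near 0. With upper-quartile scaling Creb3l1 was at -0.0126, Hsp90b1 at -0.00561 and Calr at -0.0438, and Calr was at -0.000418 with RLE and -0.0171 with a stricter filter. With the trend removed Creb3l2 was at -0.15, Hsp90b1 at -0.11 and Atf4 at 0.13. With no filter Dnajc3 was at 0.00965 and Atf4 at 0.0382, and Atf4 was at 0.0124 with DESeq2. Without 1 library the values ran from -0.0285 to 0.247 for Chac1, -0.00753 to 0.184 for Trib3, -0.0206 to 0.0469 for Calr, -0.11 to 0.0294 for Dnajc3 and -0.0420 to 0.0202 for Atf4. The cause of these changes was not tested.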
